A study of Mus musculus with 2 samples.

Results

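The enzymes described here catalyse steps of glycolysis and glycogen turnover in the liver: the liver and red cell pyruvate kinase (Pklr), the liver subunit of phosphofructokinase 1 (Pfkl), glucose-6-phosphate isomerase (Gpi1), the A subunit of lactate dehydrogenase (Ldha), liver glycogen phosphorylase (Pygl) and liver glycogen synthase (Gys2). They were chosen as named genes, and every probe set whose platform annotation symbol was one of these names was taken. Of the 6 genes, 5 had such a probe set, of 12393 genes in all. Together they had 8 probe sets, and Gpi1 was not analysed here. Liver RNA of mice lacking apolipoprotein E was hybridised to Affymetrix arrays, 1 for each of the 2 diets. The array titled orujo represents animals whose high-fat diet was supplemented with olive oil's unsaponifiable fraction, the minor part of the oil that is not fatty acid ester. The array titled olive represents animals whose high-fat diet was supplemented with the oil itself. Both groups thus shared the genotype and the high-fat feeding, and the arrays are called orujo and olive below. No label read here states age, sex, strain background, hour of sampling, feeding state or whether animals were pooled. The series asks how the kind of olive oil relates to hepatic gene expression.

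A hepatocyte takes up glucose and phosphorylates it, and the glucose 6-phosphate then either runs down glycolysis to pyruvate or is stored as glycogen. Glycogen synthase lengthens the glycogen chain and glycogen phosphorylase shortens it, so that the liver can release glucose between meals. Phosphofructokinase 1 and pyruvate kinase catalyse steps of glycolysis that are essentially irreversible in the cell, and transcription of Pklr in liver is known to follow glucose through the factor ChREBP, encoded by Mlxipl, and its partner Mlx. Lactate dehydrogenase interconverts pyruvate and lactate. In bulk liver RNA, fewer cells of a type and less RNA per cell cannot be told apart.

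Start-site sequences of 4 of the 300-base promoter windows are shown because Pklr and Pygl had the lowest ratios among these genes and Ldha one of the positive ones. They were taken from RefSeq (GRCm38.p6), run from 250 bases before to 50 bases after the annotated start, and are written 5′ to 3′ on the strand of the gene. The table held a window for 5 of the 6 genes and none for Gys2. Capitals mark every match on either strand to CACGNG followed after 5 bases by its reverse complement, a form of the paired E-box bound by ChREBP and MLX, or to ACGTG, the core read by hypoxia-inducible factors. The motifs overlap wherever the free position of CACGNG is T. The windows are Pklr upstream start at chr3:89135892-89136191 (plus strand), Pklr downstream start at chr3:89136373-89136672 (plus strand), Pygl at chr12:70227634-70227933 (minus strand) and Ldha at chr7:46845554-46845853 (plus strand).
Pklr upstream start: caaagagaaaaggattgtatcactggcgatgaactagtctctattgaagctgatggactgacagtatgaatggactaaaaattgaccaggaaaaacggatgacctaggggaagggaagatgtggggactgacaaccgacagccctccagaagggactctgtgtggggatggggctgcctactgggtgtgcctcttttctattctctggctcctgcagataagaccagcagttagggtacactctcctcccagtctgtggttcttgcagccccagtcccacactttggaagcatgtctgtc
Pklr downstream start: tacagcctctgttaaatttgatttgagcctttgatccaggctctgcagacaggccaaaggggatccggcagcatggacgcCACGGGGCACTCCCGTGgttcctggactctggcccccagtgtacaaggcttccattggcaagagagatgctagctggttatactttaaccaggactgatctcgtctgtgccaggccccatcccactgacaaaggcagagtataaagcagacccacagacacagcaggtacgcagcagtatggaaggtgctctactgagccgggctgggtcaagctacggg
Pygl: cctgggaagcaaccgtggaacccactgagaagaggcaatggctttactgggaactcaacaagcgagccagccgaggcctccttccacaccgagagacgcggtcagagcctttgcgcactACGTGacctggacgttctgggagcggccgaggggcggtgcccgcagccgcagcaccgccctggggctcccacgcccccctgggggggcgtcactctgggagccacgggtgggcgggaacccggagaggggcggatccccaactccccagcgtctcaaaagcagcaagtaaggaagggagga
Ldha: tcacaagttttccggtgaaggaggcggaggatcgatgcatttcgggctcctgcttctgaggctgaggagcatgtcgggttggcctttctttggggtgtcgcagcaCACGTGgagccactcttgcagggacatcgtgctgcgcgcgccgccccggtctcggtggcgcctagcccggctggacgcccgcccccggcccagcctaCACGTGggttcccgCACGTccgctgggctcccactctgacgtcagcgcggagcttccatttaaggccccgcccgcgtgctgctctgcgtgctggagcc
The downstream window of Pklr held the single paired E-box, CACGGGGCACTCCCGTG, which lies between positions −170 and −154 counted from the start site. This motif occurred in 0.0457% of the 32851 windows in the table, that is in 15 of them. The Ldha window held ACGTG in 3 blocks, of which 2 read it on both strands, and the Pygl window held it in 1. ACGTG occurred in 19.6% of all windows. Neither motif was present in the windows of Pfkl and Gpi1, in the upstream window of Pklr or in the other window of Ldha. These matches describe the letters of the windows only.

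The values are the deposited probe set intensities, which the authors had scaled to a common trimmed mean (100.05 on each array over 22690 probe sets). The median of both arrays pooled, 35.6, served as a floor. A probe set above it on both arrays is called measured, a gene was read from its brightest probe set, and ratios are log2 values of the orujo array over the olive array. A single array per diet allows no test, and no value has an error between animals. As the only repeated measurement, 2057 genes had at least 2 measured probe sets, and the log2 ratios of the 2 brightest differed with an SD of 0.43, which puts the SD of a single probe set at 0.30. That spread holds for probe sets that share RNA, labelling and hybridisation. Over 6640 measured genes the median log2 ratio was −0.02, with the 10th percentile at −0.46 and the 90th at 0.44. Hepatocyte markers were abundant on both arrays, as all 8 with a probe set lay above the floor, including Alb at 7692.5 and 8102.7 on the orujo and the olive array. The median log2 ratio of these 8 was 0.14, from −0.13 to 0.40, and their signals summed to 48362.6 (orujo) and 45700.3 (olive).

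In the comparison of the diets, the enzymes did not share a direction. Pklr, Pfkl and Pygl had lower signals on the orujo array, while Gys2 and Ldha had higher ones. By the brightest probe set of each gene, 3 of 5 had a negative ratio, as had 52.7% of all measured genes, and 0 of 5 differed at least 2-fold, against 2.30% of all measured genes. At a limit of 1.5-fold, 1 gene was higher, where 5.45% of all measured genes were, and 2 were lower, where 5.62% were. The sizes were therefore moderate, between 1.30-fold and 1.65-fold.

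**Figure D1:**
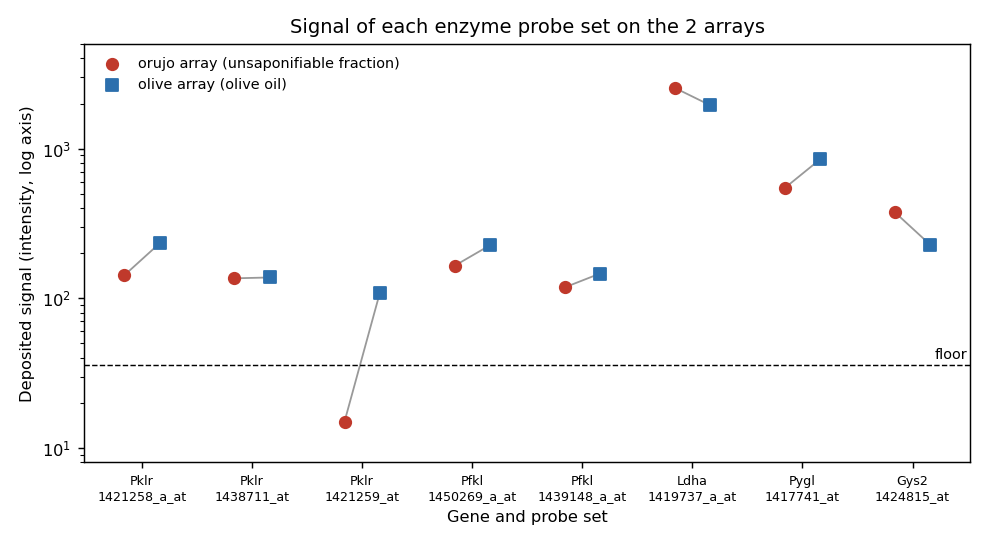
Deposited signal (intensity, log axis) of each of the 8 probe sets on the orujo array (circles, left) and the olive array (squares, right), with the floor of 35.6 as a dashed line. There is 1 array per diet, so no error bars are drawn; Pfkl and Pygl lie lower on the orujo array, Ldha and Gys2 higher, and of the Pklr probe sets 1 is lower, 1 nearly level and 1 below the floor there.

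Pygl encodes the liver isoform of glycogen phosphorylase, the enzyme that releases glucose 1-phosphate from glycogen. Its single probe set, 1417741_at, gave a signal of 545.9 on the orujo array and 847.6 on the olive array. The signal was 1.55-fold lower on the orujo array (log2 ratio −0.63). This difference was 2.08 times the SD of a single probe set, and 4.38% of measured genes had a ratio as low or lower. The phosphorylases of brain and muscle, Pygb and Pygm, lay below the floor on both arrays, with signals of 6.4 and 29.0 for Pygb and of 6.4 and 5.4 for Pygm on the orujo and the olive array, so Pygl was the only phosphorylase gene measured.

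Gys2, the liver isoform of glycogen synthase, ran the other way. Its single probe set, 1424815_at, had a signal of 375.1 on the orujo array against 228.0 on the olive array. The signal was 1.65-fold higher (log2 ratio 0.72), or 2.36 times the SD of a single probe set, and 3.34% of measured genes had a ratio as high or higher. The muscle isoform, Gys1, stayed below the floor on both arrays in each of its probe sets, the brighter of which read 5.7 and 10.3 on the orujo and the olive array. Among the enzymes analysed, glycogen synthase thus had the highest ratio and glycogen phosphorylase the second lowest, each from 1 probe set with no second reading.

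Pklr, which encodes the pyruvate kinase of hepatocytes and of red cells, was read by 3 probe sets that did not give the same answer. The brightest, 1421258_a_at, had 142.5 on the orujo array and 232.8 on the olive array, 1.63-fold lower (log2 ratio −0.71). The next, 1438711_at, had 135.9 (orujo) and 137.7 (olive), a log2 ratio of −0.02. The last, 1421259_at, had 15.0 (orujo) and 108.2 (olive), so it lay below the floor on the orujo array and was at least 3.04-fold lower there (log2 bound −1.60). With the floor at percentile 75 this bound was −0.096, which is no longer past 2-fold. All readings were lower on the orujo array or level.

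The brightest and the next probe set of Pklr differed by 0.69 in log2 ratio, and 11.2% of the 2057 genes with such a pair differed by as much. Among probe sets above the floor on the olive array only, 2.78% had a bound of at least 2-fold. By the brightest probe set of Pklr, 3.21% of measured genes had a ratio as low or lower, whereas the mean over its measured probe sets was −0.36, so its size depends on which probe set is read. The suffix _a_at marks a probe set that matches several transcripts of 1 gene, and the position of each probe set on the red cell and liver transcripts, which begin at the upstream and the downstream start printed above, was not known here. Of the red cell markers, Hbb-b2 read 86.5 and 43.9 and Alas2 120.2 and 104.8 on the orujo and the olive array, the other 3 with a probe set lay below the floor on both, and their part in the Pklr signal was not tested.

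**Figure D2:**
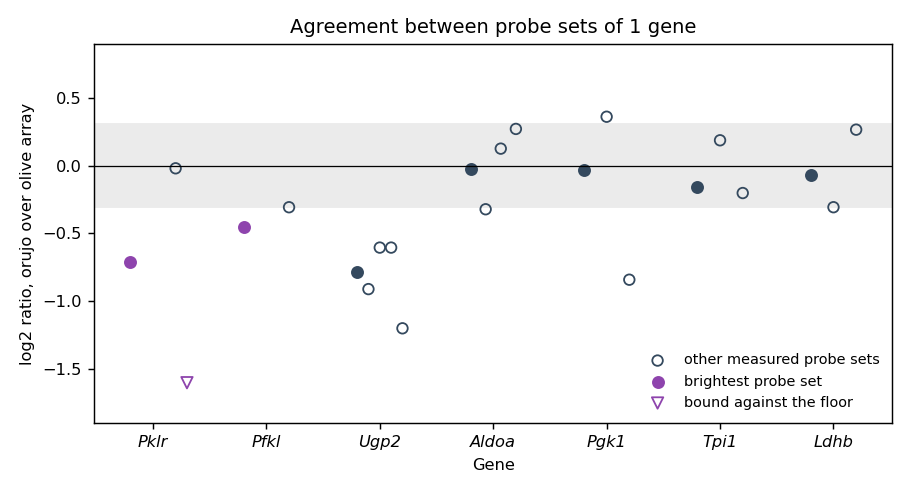
log2 ratio of the orujo array over the olive array for every measured probe set of Pklr, Pfkl and those genes of the glycolysis and glycogen synthesis lists with at least 3 measured probe sets. Filled points are the brightest probe set, open circles the others, the open triangle a bound against the floor, and the grey band 1 SD of a single probe set (0.30) on either side of 0. All 5 probe sets of Ugp2 lie below the band, while those of Aldoa, Pgk1, Tpi1 and Ldhb fall on both sides of 0.

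Pfkl encodes the liver subunit of phosphofructokinase 1, which commits fructose 6-phosphate to glycolysis. Probe set 1450269_a_at gave 164.9 on the orujo array and 225.8 on the olive array (log2 ratio −0.45), and 1439148_a_at gave 118.2 (orujo) and 146.2 (olive), a log2 ratio of −0.31. Both readings were lower on the orujo array, by 1.37-fold and 1.24-fold, and differed from each other by only 0.15. The larger of them was 1.49 times the SD of a single probe set, and 10.4% of measured genes had a ratio as low or lower. The muscle subunit, Pfkm, was lower by less (114.1 on orujo and 132.3 on olive, log2 ratio −0.21), and the platelet subunit, Pfkp, lay below the floor on both arrays, at 20.5 (orujo) and 18.1 (olive) in its brighter probe set.

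Ldha, whose product turns pyruvate into lactate and back, had a signal of 2544.7 on the orujo array and 1950.5 on the olive array. The log2 ratio of 0.38 corresponds to a 1.30-fold higher signal from 1 probe set, 1419737_a_at, and 12.7% of measured genes had a ratio as high or higher. This was 1.26 times the SD of a single probe set and the smallest difference among the 5 genes. Ldhb, the other somatic subunit, had 173.6 (orujo) and 182.1 (olive) in its brightest probe set (log2 ratio −0.07), and its measured probe sets ranged from −0.31 to 0.27. Pkm, the pyruvate kinase gene of most other tissues, was barely above the floor at 40.7 on orujo and 42.5 on olive (log2 ratio −0.06).

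**Figure D3:**
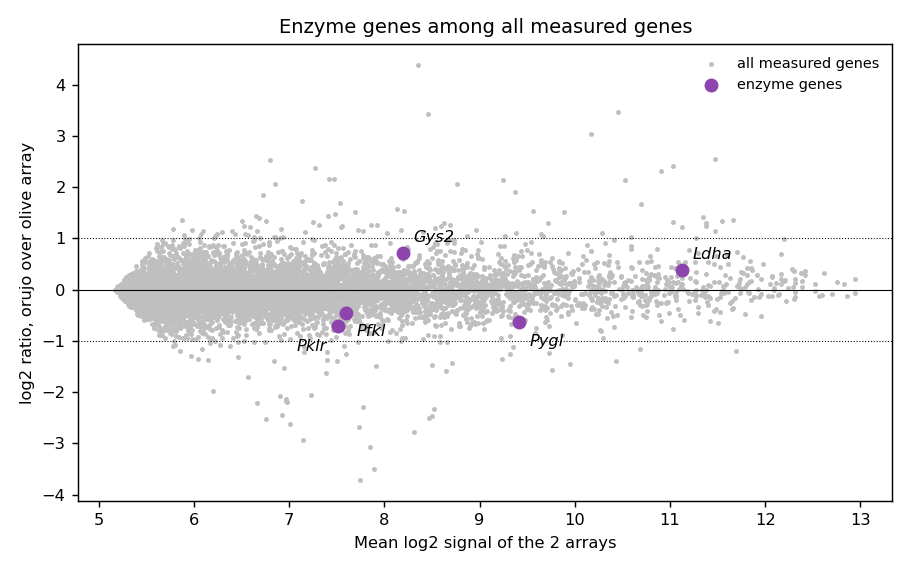
log2 ratio of the orujo array over the olive array against the mean log2 signal of both arrays, for 6640 measured genes (grey) and the 5 enzyme genes (purple), each by its brightest probe set. Dotted lines mark 2-fold in either direction, and the 5 genes lie inside them. Of the measured genes, 6.33% differed in either direction at least as much as Gys2, 6.75% as Pklr and 8.96% as Pygl.

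Around these enzymes, the carbohydrate genes of 10 further lists were mostly close to level: of 67 measured genes, 1 was at least 2-fold higher (1.33% of all measured genes were) and 0 were at least 2-fold lower (0.979%). At 1.5-fold, 2 were higher (2.99%, against 5.45% of all measured genes) and 6 were lower (8.96%, against 5.62%). The higher ones were Aldoc and Gsk3a, and the lower ones Bpgm, Ugp2, Slc2a8, Galm, Prps2 and Rpe. Their median log2 ratio was −0.05, beside −0.02 over all measured genes. The gene past 2-fold was Aldoc, the brain-type aldolase, with 101.0 and 46.0 on the orujo and the olive array (2.20-fold higher). Its other probe set lay below the floor on both arrays. Without probe sets of shared sequence, a class that here includes the suffix _a_at of the Aldoc reading, no gene of these lists was 2-fold higher.

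Over 12 other measured glycolysis genes the median log2 ratio was −0.07, with 9 negative ratios, where 52.7% of all measured genes were negative. Aldoa, the aldolase of muscle and red cells, was at −0.02, Pgk1, phosphoglycerate kinase, at −0.03, Pgam1, phosphoglycerate mutase, at 0.00 and Tpi1, triosephosphate isomerase, at −0.16 by their brightest probe sets. The other measured probe sets of Pgk1 were at 0.36 and −0.84, and Aldoc, above, was the highest of the list at 1.13. The lowest was Bpgm, bisphosphoglycerate mutase, at 50.4 on orujo and 79.5 on olive (log2 ratio −0.66), whose other probe sets were below the floor. Gapdh was read here from the control probe sets of the array alone. They gave log2 ratios of 0.11 at the 3′ end, 0.09 in the middle and 0.15 at the 5′ end, so this gene was near level at each position read.

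Of 10 regulators of glycolysis with a probe set, 6 were measured, with a median of 0.02. Mlxipl, which encodes ChREBP, had 382.5 on the orujo array and 400.1 on the olive array (log2 ratio −0.06), and Mlx was the highest of the 6 at 0.18, with −0.31 in its other measured probe set. Gckr, the inhibitory protein of glucokinase, was at −0.06. Prkar2a, a regulatory subunit of protein kinase A, lay above the floor on the orujo array only (52.7, against 32.9 on olive, at least 1.48-fold higher). Pfkfb2, one of the enzymes that set the level of fructose 2,6-bisphosphate, lay above it on the olive array only (31.6 on orujo, against 50.9 on olive, at least 1.43-fold lower). For comparison, Pklr, whose downstream window holds the paired E-box printed above, was at −0.71 and −0.02 in its measured probe sets.

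The pyruvate entry list held pyruvate and monocarboxylate carriers, subunits of pyruvate dehydrogenase and kinases that inhibit it. Its median was 0.03 over 9 measured genes, from Mpc1, a subunit of the mitochondrial pyruvate carrier, at −0.40 to Pdk1, an inhibitory kinase, at 0.48. Pdk4, another such kinase, lay above the floor on the orujo array only, with 96.1 against 20.6 on the olive array, at least 2.70-fold higher. Of the genes above the floor on the orujo array only, 3.55% had a bound of at least 2-fold. With the floor at percentile 75 (101.2), Pdk4 lay below it on both arrays and had no ratio.

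On the glycogen side, the lowest ratio in the synthesis list belonged to Ugp2, which encodes the UDP-glucose pyrophosphorylase that makes the substrate of glycogen synthase and of glucuronidation. Its brightest probe set had 939.8 on the orujo array and 1616.9 on the olive array, 1.72-fold lower (log2 ratio −0.78). All 5 of its probe sets were lower, with log2 ratios between −1.20 and −0.61. The rest of the synthesis list was closer to level: Gbe1, the branching enzyme, was at 0.11, Stbd1, a glycogen-binding protein, at −0.10 and Pgm1, a phosphoglucomutase, at −0.24. Gys2 and Ugp2, which act in succession, thus had ratios of opposite sign.

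Other measured genes of glycogen breakdown were near level by their brightest probe sets. Phkg2 and Phka2, the catalytic and regulatory subunits of the liver phosphorylase kinase, were at 0.16 and 0.05. Gaa, the lysosomal glucosidase, was at −0.11, but its other measured probe set was at −0.47 (126.4 on orujo and 174.9 on olive). Among the regulators of glycogen enzymes the median was 0.06 over 6 measured genes. Gsk3a, a kinase that phosphorylates glycogen synthase, was highest with 257.3 on orujo and 164.2 on olive (1.57-fold higher), and Ppp1ca, a catalytic subunit of protein phosphatase 1, was lowest at −0.38. Ppp1r3c, a subunit that targets this phosphatase to glycogen, gave 0.27 and −0.29 in its 2 probe sets. Epm2a, the glycogen phosphatase laforin, was above the floor on the orujo array only (65.2, against 31.0 on olive, at least 1.83-fold higher).

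Entry and exit of glucose were read through the transporters, whose median was 0.01 over 8 measured genes. Slc2a2, the main glucose carrier of the hepatocyte membrane, had 538.4 on the orujo array and 793.1 on the olive array (log2 ratio −0.56), and Slc2a8, an intracellular carrier, was lowest at −0.59. Slc37a4, which carries glucose 6-phosphate into the endoplasmic reticulum for glucose release, was highest, at 1795.4 on orujo and 1339.6 on olive (log2 ratio 0.42). The 4 measured gluconeogenesis genes all had positive ratios, from Pck1 at 0.16 to G6pc, glucose-6-phosphatase, at 0.42, where 47.1% of all measured genes were positive. Pcx, pyruvate carboxylase, is counted there at 0.28, and the control probe sets for this gene were at 0.52, 0.76, 0.53 and 0.64.

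**Figure D4:**
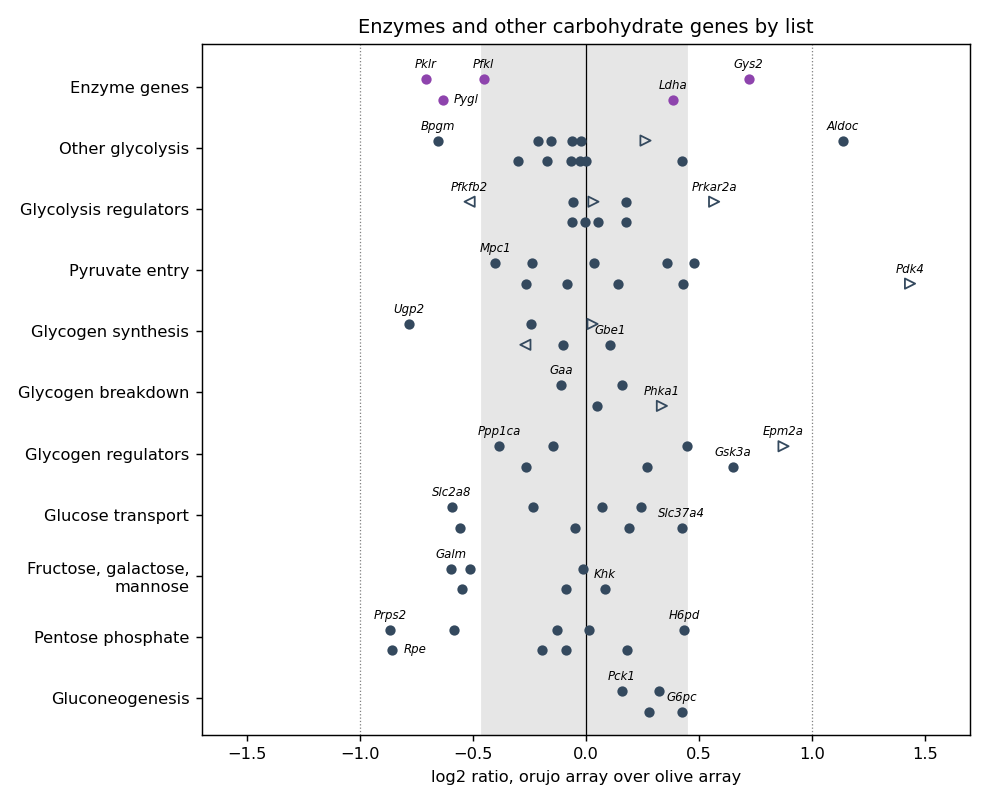
log2 ratio of the orujo array over the olive array for the 5 enzyme genes (top row, purple) and the other carbohydrate genes by list, by the brightest probe set. Filled points are measured on both arrays, open triangles are bounds for genes above the floor on 1 array only (pointing right for the orujo array), the grey band runs from the 10th to the 90th percentile of all measured genes (−0.46 to 0.44), and dotted lines mark 2-fold. Pklr, Pygl and Gys2 lie outside the band, as do Ugp2, Aldoc and some others.

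Markers of other tissues and cell types were read on the same arrays. Of 9 exocrine pancreas markers measured on both arrays the median log2 ratio was −2.79, and the summed signal of the 11 with a probe set was 742.8 on the orujo array and 5890.5 on the olive array. The 7 skeletal muscle markers lay below the floor on both arrays, with sums of 94.0 (orujo) and 77.9 (olive). The 8 macrophage markers had a median of 0.30, from −0.36 (Cd68) to 0.40 (Cd5l). Neutrophil markers summed to 337.4 (orujo) and 282.8 (olive), but the 4 measured on both arrays had a median of −0.07. S100a8 (60.7 on orujo, 17.2 on olive) and S100a9 (49.2 and 20.8) lay above the floor on the orujo array only. Of the control probe sets for RNA integrity, 18S ribosomal RNA was at a log2 ratio of 2.54 at its 5′ end and 0.34 at its 3′ end, beside 0.15 and 0.11 for Gapdh. In the same order, beta-actin was at −0.03 and −0.27, and pyruvate carboxylase at 0.76 and 0.52. The part of these differences in the enzyme ratios was not tested.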

How the data were processed

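Liver RNA (about 8 µg per array, per the labels) was profiled on 2 Affymetrix arrays, 1 per diet. The deposited values are linear probe set intensities as the authors summarised and scaled them; software and settings: not given in the sources used here. They were used as deposited. The 64 control probe sets were set apart. A floor at the 50th percentile of both arrays pooled (35.6) replaced lower values before log2. Symbols came from the platform annotation, which gave 1 symbol to 20380 of 22626 probe sets, several to 691 and none to 1555; those with several or none were not named. A gene was read from its brightest probe set (mean log2 over both arrays). Genes were named by rule: the enzymes and their isozymes, and in each list the extremes and those past 2-fold or with a bound past 1.5-fold; Aldoa, Pgk1, Pgam1, Tpi1, Gckr, Stbd1, Pgm1, Phka2, Prkar2a, Pfkfb2, Ppp1r3c, Slc2a2, Pcx, Tkt, Rpe, Galt and Mpi were chosen after their values were seen. Enzymes and lists were chosen with earlier results of these data known. The steps were tested on simulated data with planted changes of 2-fold or more, in genes well above the floor. Smaller planted changes, readings near the floor and differences between animals were not covered. Python 3.11.15, pandas 2.3.3 and statsmodels 0.14.6 were used.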

Additional observations from a re-analysis of the deposited data

Results flagged for a closer look

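The control probe sets of the array were left out of the gene counts. Among them, the 18S ribosomal RNA probe set AFFX-18SRNAMur/X00686_5_at read 2294.3 on the orujo array and 394.9 on the olive array, a log2 ratio of 2.54. The probe set for the middle of the same RNA, AFFX-18SRNAMur/X00686_M_at, read 1231.6 (orujo) and 221.3 (olive), a log2 ratio of 2.48. These are signals outside the gene probe sets that were higher on the orujo array than on the olive array, and no other control probe set was at least 2-fold higher there. The 3′ probe set of the 18S RNA was at 0.34. Control probe sets for BioB, BioC, BioD and Cre, which are not mouse genes, were also mostly higher on the orujo array. Their log2 ratios ran from −0.03 (AFFX-CreX-5_at, the only negative one) to 0.74 (AFFX-r2-Ec-bioB-M_at), beside 0.72 for Gys2. The part of these differences in the enzyme ratios was not tested.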

How the results depend on the processing

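Other scalings (loess with span 0.4, quantile normalization, median centring, or the 2% trimmed mean), a floor at percentile 25 or 75, and log2(value + floor) left Gys2 between 0.64 and 0.73, Ldha between 0.26 and 0.40, Pfkl between −0.45 and −0.38 and Pygl between −0.66 and −0.60. Pklr stood at −0.36 as the mean over its measured probe sets and at −0.019 without probe sets whose suffix marks shared sequence. Shared sequence here includes the suffix _a_at, so it covers sequence shared by transcripts of 1 gene as well as between genes. That choice leaves 1438711_at as the measured probe set of Pklr and leaves Pfkl and Ldha none. The low reading of Pklr 1421259_at was −2.85 under the lower floor and −0.096 under the higher one, since the floor sets the bound. With a limit of 1.5-fold, 1 enzyme gene was higher and 2 were lower, in place of 0 and 0, and of the other carbohydrate genes 2 were higher and 6 lower, in place of 1 and 0. At 2-fold the higher count of these was 3 under the lower floor, and 0 under the higher floor, under log2(value + floor) and without probe sets of shared sequence. Medians of the lists stayed within 0.30 of those given, a limit as large as the largest of them, and several near 0 changed sign. No paired analysis was possible because each diet had 1 array, and for the same reason no array could be left out. Signal near the floor limits what can be read for Aldoc (46.0 on the olive array), Bpgm, Pkm and the isozymes at or below it.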

Other observations

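Over 9 measured pentose phosphate genes the median log2 ratio was −0.13, with 6 negative ratios, where 52.7% of all measured genes were negative. With the floor at percentile 75 the median was −0.058. Prps2, which makes phosphoribosyl pyrophosphate, had 57.1 on the orujo array and 104.1 on the olive array (log2 ratio −0.87). Rpe, ribulose-phosphate epimerase, was at −0.86 in its brightest probe set and at −0.15 in its other measured one. Tkt, transketolase, gave −0.58 and −0.63 in 2 probe sets, while H6pd, the hexose-6-phosphate dehydrogenase of the endoplasmic reticulum, was highest at 0.43.

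In the list for fructose, galactose and mannose, 5 of 6 measured genes were negative, where 52.7% of all measured genes were, and the median of the list was −0.30. That median was −0.091 with the floor at percentile 25 and at percentile 75. Galm, galactose mutarotase, had 438.4 on the orujo array and 664.1 on the olive array (log2 ratio −0.60), and its other measured probe set was at −0.54. Galt, the uridylyltransferase that exchanges galactose for glucose on UDP, was at −0.55, and Mpi, mannose phosphate isomerase, at −0.52. Khk, ketohexokinase of fructose use, was the one positive gene at 0.08.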
